A study of Rattus norvegicus with 5 samples.

Results

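The leukocyte miRNAs described here are rno-miR-142-3p, rno-miR-142-5p, rno-miR-223, rno-miR-150 and rno-miR-342-3p, which make up 5 of the 678 rat miRNA probes on the array. They were taken by name, as miRNAs of the blood-forming lineages that can be read as an index of leukocytes in a pressure-loaded heart, and each is printed as 4 spots on every array. The hearts came from male SD rats of 6 to 8 weeks. Transverse aortic constriction (TAC), in which the aortic arch is narrowed between the carotid arteries so that the left ventricle pumps against a raised pressure, was followed for 5, 10, 15 or 20 days, and a sham operation without the constriction served as the control. Each of the 5 arrays, 4 TAC and 1 sham, was hybridized with Hy3-labelled total RNA of the hearts of 5 rats, so no spread between rats can be given, and every error below is over the 4 spots of a probe. The label dates the sham sample 5 days after surgery, but its raw column is headed day 15, and which is right was not settled.

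MiRNAs are short RNAs that guide Argonaute proteins to messenger RNAs through a seed near their 5′ end. MiR-142 is made in nearly all blood-forming cells, miR-223 is known from neutrophils and other myeloid cells, where it restrains their activation, and miR-150 is abundant in mature lymphocytes, where it represses the transcription factor Myb. MiR-342-3p is likewise known from lymphocytes and monocytes. Pressure overload brings macrophages and T cells into the heart, and whole-heart RNA also holds whatever blood remains in the organ. The labels do not say whether the hearts were flushed of blood. More leukocytes in the tissue and more of a miRNA per leukocyte cannot be told apart in such RNA.

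The mature sequences of 4 of the 5 miRNAs were found in RefSeq (build GRCr8) and are shown because the probes read these strands, with the seed, bases 2 to 8, in capitals.
rno-miR-142-3p: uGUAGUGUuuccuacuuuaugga
rno-miR-142-5p: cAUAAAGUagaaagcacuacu
rno-miR-223: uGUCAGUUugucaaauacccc
rno-miR-342-3p: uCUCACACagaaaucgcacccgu
The 4 seeds are all different, so these miRNAs do not belong to one seed family. The array's older name rno-miR-223 stands for the strand that RefSeq lists as rno-miR-223-3p. Both miR-142 strands are cut from 1 hairpin at chr10:73055104-73055190 (plus strand), inside the span of the gene Tspoap1, and are shown in capitals within it, the 5p arm first.
Mir142 hairpin: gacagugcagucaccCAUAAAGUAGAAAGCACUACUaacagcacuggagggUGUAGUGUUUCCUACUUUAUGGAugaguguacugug
The mature miR-342-3p lies at chr6:133329715-133329737 (plus strand), inside the span of Evl, the gene of an actin regulator, and the mature miR-223 strand at chrX:65151450-65151470 (plus strand).

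Detection and scale set what could be compared. Detection required that the 4 spots of a miRNA average more background-subtracted signal than a floor drawn from empty and negative-control spots (their median plus 3 scaled median absolute deviations), which was 72.1 units on TAC day 5, 46.4 on TAC days 10 and 15, 28.1 on TAC day 20 and 30.6 on sham. Of the 5 leukocyte miRNAs, 3 were above the floor on TAC day 5, 4 on each of TAC days 10 and 15, and all 5 on TAC day 20 and on sham. Of all 678 rat miRNAs, 162, 213, 207 and 257 were above it on TAC days 5, 10, 15 and 20, and 236 on sham. MiR-223 was below it on TAC day 5, and miR-342-3p on TAC days 5, 10 and 15. Ratios are given as log2 of TAC over sham after quantile scaling of the rat miRNAs, in which a log2 ratio of 1 is 2-fold, and each has its standard error (SE) over spots. If the arrays were scaled to the synthetic spike-in controls instead, the median ratio of all miRNAs above the floor on both arrays for TAC days 5, 10, 15 and 20 would be 2.54, 1.86, 0.76 and 0.29, against 0.56, -0.01, -0.01 and -0.08 with quantile scaling. The 4 spots of a probe sit as pairs in 2 sets of blocks on the slide, blocks 1 to 18 and blocks 19 to 36. The SE takes the 4 spots as independent and leaves out this pairing. On TAC days 10 and 15 the block sets read differently for the miRNAs as a whole, by a median of 0.76 and 0.51 on the log2 scale, higher in blocks 19 to 36, so the block sets are given separately for the 5 leukocyte miRNAs and for the lists set beside them where they differ in sign.

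On TAC day 20 both strands of miR-142, miR-223 and miR-150 read above sham, by 1.46- to 1.73-fold, and miR-342-3p read below it. None of the 5 reached 2-fold in either direction, which 1.73% of the 231 miRNAs compared on that day did. Of the 5, 4 read above sham in both block sets taken separately, which held for 31.6% of all miRNAs compared. The same 4 were also above sham under each of the 9 other processing choices tried, each block set alone among them, which held for 23.8% of all miRNAs compared. All 4 spots lay above all 4 sham spots for 2 of the 5, the miR-142 strands (19.5% of all miRNAs), and below them for 1, miR-342-3p (14.7%). The median log2 ratio of the 5 was 0.59, against -0.08 for all miRNAs. In order of the ratio, miR-150 stood 11th from the top of 231, miR-223 17th, miR-142-5p 22nd, miR-142-3p 25th and miR-342-3p 191st.

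MiR-142-3p, the strand of miR-142 that falls on the right arm of the hairpin, gave background-subtracted signals of 3146, 3417, 3283 and 3254 units on TAC day 5 and 3041, 2510, 5802 and 8077 units on TAC day 10. It gave 3382, 3351, 9971 and 10195 units on TAC day 15, 6792, 7182, 10203 and 10495 units on TAC day 20, and 5770, 5746, 6908 and 6907 units on sham. In each set the first 2 spots lie in block 12 and the last 2 in block 30. After scaling, all 4 spots of TAC day 5 lay below all 4 of sham, as for 1 of 3 members and 27.6% of all miRNAs compared on that day, while all 4 of TAC day 20 lay above them, and on days 10 and 15 the TAC spots lay on both sides of sham.

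Over TAC days 5, 10, 15 and 20 the log2 ratio of miR-142-3p to sham was -0.28 ± 0.07 (SE over spots), -0.29 ± 0.43, 0.08 ± 0.35 and 0.55 ± 0.13. Days 10 and 15 were on opposite sides of sham in the 2 block sets. In block 12 miR-142-3p read -0.87 on day 10 and -0.42 on day 15, and in block 30 it read 0.29 and 0.58. On day 20 both read above sham, at 0.45 and 0.65.

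MiR-142-5p, the strand on the left arm, gave 626, 639, 653 and 560 units on TAC day 5 and 579, 488, 1137 and 1237 units on TAC day 10. It gave 583, 608, 1491 and 1521 units on TAC day 15, 1111, 1215, 1635 and 1793 units on TAC day 20, and 882, 870, 1032 and 978 units on sham, in the same blocks as the 3p strand. The TAC day 20 spots were the only TAC set that did not overlap with sham after scaling, and they lay above it.

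At those 4 times the log2 ratio of miR-142-5p was 0.19 ± 0.05, -0.11 ± 0.20, 0.18 ± 0.37 and 0.59 ± 0.19. The block sets again fell on opposite sides of sham on day 10 (-0.38 and 0.15) and on day 15 (-0.37 and 0.73), and on the same side on day 20 (0.36 and 0.82). The day 5 value has no settled direction: it was -0.60 with quantile scaling over all probes and -0.08 with arrays scaled by their median.

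The strands of miR-142 come from the same hairpin and share their blocks, so their ratios can be set side by side. The 3p ratio less the 5p ratio was -0.47 ± 0.09, -0.17 ± 0.47, -0.10 ± 0.51 and -0.05 ± 0.23 at the 4 times in order. From day 10 on, the strands differed by less than this SE, and on day 5 by more. The SE treats the strands as independent, so on days 10 and 15 it includes the gap between their shared blocks. On day 10 the 3p and 5p strands read -0.87 and -0.38 in block 12, and 0.29 and 0.15 in block 30. On day 15 they read -0.42 and -0.37 in block 12, and 0.58 and 0.73 in block 30. A difference paired by block was not tested.

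**Figure D1:**
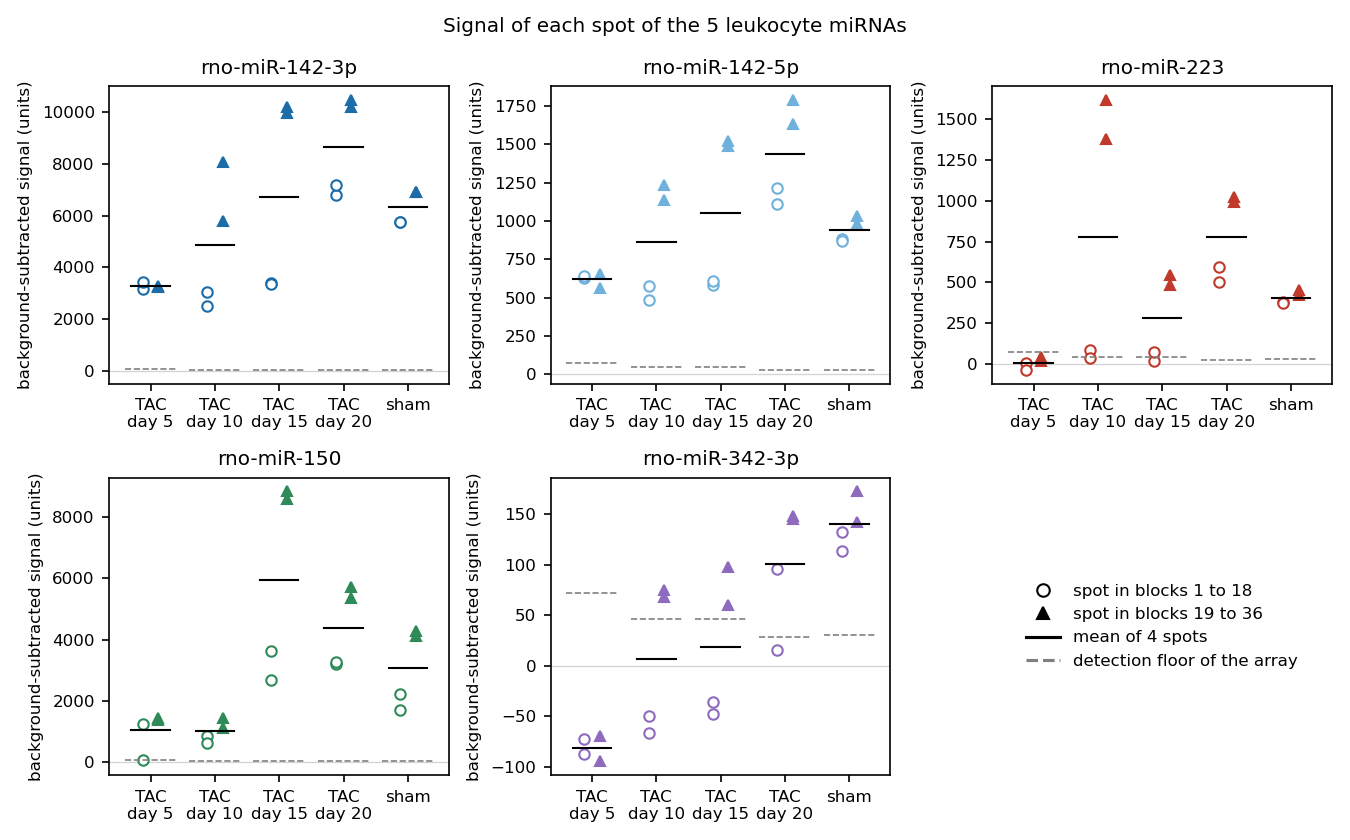
Background-subtracted signal in units (vertical axis) of each of the 4 spots of the 5 leukocyte miRNAs on the 4 TAC arrays and the sham array (horizontal axis), with open circles for blocks 1 to 18, triangles for blocks 19 to 36, a black bar for the mean and a dashed line for the detection floor. The block sets lie far apart on TAC days 10 and 15 (40 and 88 against 1376 and 1618 units for miR-223 on day 10) and closer together on sham, apart from miR-150 (1697 and 2242 against 4111 and 4290 units).

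MiR-223, the myeloid miRNA, gave 9, -35, 47 and 22 units on TAC day 5, all under the floor of 72.1 units. It gave 88, 40, 1376 and 1618 units on TAC day 10, 21, 78, 543 and 483 units on TAC day 15 and 504, 593, 1022 and 991 units on TAC day 20, against 378, 375, 454 and 421 units on sham. The first 2 spots of each set lie in block 15 and the last 2 in block 33. All 4 spots of TAC day 20 had more background-subtracted signal than any sham spot, although after scaling they overlapped with sham, and the 4 sham spots were close to each other.

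Against sham, miR-223 was at least 1.67-fold lower on TAC day 5 with quantile scaling. This bound takes for day 5 the higher of the probe's own level and that of the dimmest detected miRNA on that array. It was not recomputed with spike-in scaling, in which the day 5 median of all miRNAs was 2.54. On the next 3 TAC arrays the log2 ratio of miR-223 was 0.30 ± 0.77, -0.36 ± 0.46 and 0.64 ± 0.27. The day 10 mean joins -0.94 in block 15 and 1.54 in block 33, a difference of 2.48. Ranked by the signed difference, blocks 19 to 36 less blocks 1 to 18, it was 22nd from the highest of 197 miRNAs. On day 15 the same blocks read -1.06 and 0.34. On day 20 both read above sham, at 0.26 and 1.02.

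MiR-150, the lymphocyte miRNA, gave 65, 1266, 1451 and 1398 units on TAC day 5 and 865, 631, 1443 and 1121 units on TAC day 10. It gave 3631, 2691, 8852 and 8592 units on TAC day 15 and 3215, 3265, 5718 and 5369 units on TAC day 20, against 1697, 2242, 4111 and 4290 units on sham. The first 2 spots of each set lie in block 1 and the last 2 in block 19. After scaling, only the TAC day 10 spots did not overlap with those of sham, and they lay below it, as for 1 of 4 members and 10.2% of all miRNAs compared on that day. Before scaling, the spots of days 15 and 20 all had more signal than the sham spots of the same block.

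The log2 ratio of miR-150 was -1.15 ± 0.71 and -1.24 ± 0.33 on the arrays of days 5 and 10, and 1.03 ± 0.43 and 0.79 ± 0.34 on those of days 15 and 20. Both block sets had the same sign at each of the 4 times: -1.38 and -0.92 on day 5, then -1.06 and -1.41 (day 10), 0.93 and 1.13 (day 15) and 0.89 and 0.69 (day 20). The spot of 65 units weighs on day 5, where the median of spots gave -0.59. MiRNAs beside it on the slide read low as well on day 5: the other spots in its blocks had a median ratio of -0.51 in block 1 and -0.96 in block 19 (10 spots each). On day 10 those medians were -0.64 and 0.33. With each block centred on its own spots, a choice made after seeing the data, miR-150 read 0.01 on day 5 and -0.48 on day 10. The part of slide position in these early values was not tested further. On days 15 and 20 it read 1.21 and 0.97 with the same centring. On day 15 it was the 1 of 4 members above sham under each of the 9 other processing choices, which held for 28.4% of all miRNAs compared. Spike-in scaling put it above sham on day 5 (0.92) and day 10 (0.58) as well.

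MiR-342-3p was the dimmest member. It gave -73, -88, -70 and -95 units on TAC day 5, -50, -67, 75 and 68 units on TAC day 10, -48, -36, 98 and 60 units on TAC day 15 and 15, 96, 148 and 145 units on TAC day 20, against 114, 132, 142 and 173 units on sham. The first 2 spots of each set lie in block 10 and the last 2 in block 28. Its means on TAC days 5, 10 and 15 were below the floor, though on days 10 and 15 the spots of block 28 were above it. With quantile scaling it was at least 1.47-fold lower than sham on day 10 and at least 1.34-fold lower on day 15. For day 5 no bound above 1 could be given for it, and no bound was recomputed with other scalings. On day 20 its log2 ratio was -0.42 ± 0.18, with -0.57 in block 10 and -0.28 in block 28, and with spike-in scaling it was 0.05. With plain background subtraction it was -2.01. Its 4 scaled spots of TAC day 20 lay below those of sham, but before scaling the spots of both arrays overlapped.

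**Figure D2:**
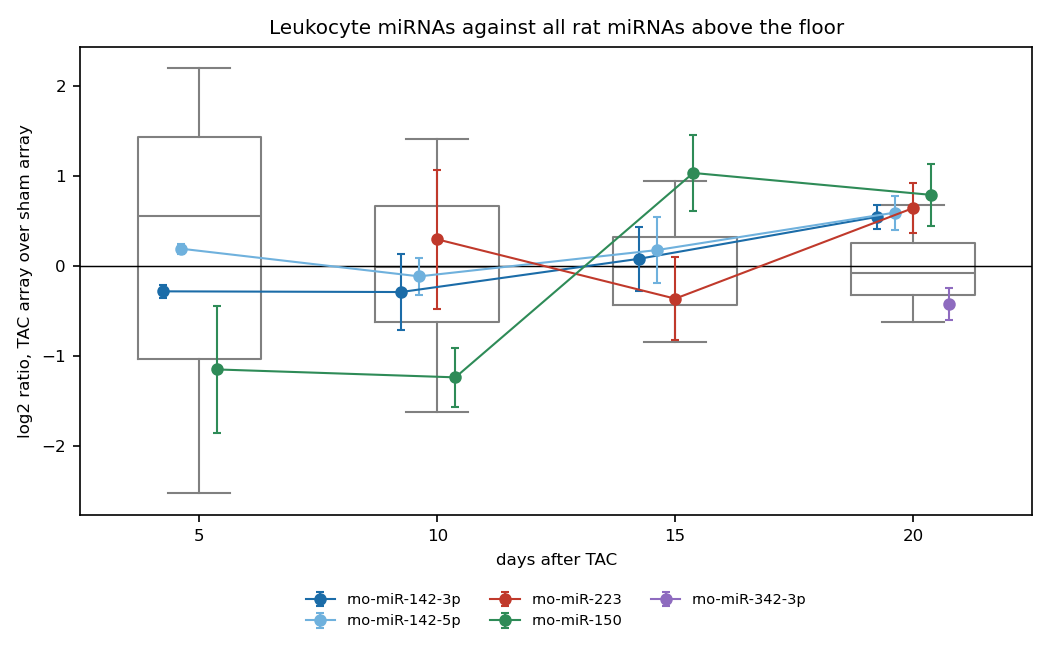
Log2 ratio of each TAC array over the sham array (vertical axis) against days after TAC (horizontal axis) for the leukocyte miRNAs above the floor on both arrays, with bars for the SE over spots, over grey boxes for all rat miRNAs above the floor on both arrays (quartiles, whiskers at the 5th and 95th percentiles). On day 20 miR-142-3p, miR-142-5p, miR-223 and miR-150 sit between 0.55 and 0.79, above the median of -0.08 for all miRNAs, and miR-342-3p sits at -0.42.

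On the earlier arrays the leukocyte miRNAs did not read in 1 direction with the scaling reported here. At 2-fold or more, 1 of 3 differed from sham on day 5 (miR-150, lower), against 67.8% of all 152 miRNAs compared, and 1 of 4 on day 10 (miR-150, lower), against 29.4% of 197. On day 15 it was 1 of 4 (miR-150, higher), against 7.46% of 201. The median ratio of the members was -0.28, -0.20 and 0.13 on those 3 days, against 0.56, -0.01 and -0.01 for all miRNAs. The block sets put 3 of 4 members on opposite sides of sham on day 10, which held for 41.6% of all miRNAs compared, and 3 of 4 on day 15, against 49.3%. The 3 were both miR-142 strands and miR-223 on each day. Other processing choices gave 1 direction to all members compared. On day 5 all read below sham with arrays scaled by their median, quantile scaling over all probes and the authors' ratios. On day 10 all did so with quantile scaling over all probes, plain background subtraction and blocks 1 to 18 alone. All read above sham on days 5, 10 and 15 with spike-in scaling, and on day 15 with blocks 19 to 36 alone.

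**Figure D3:**
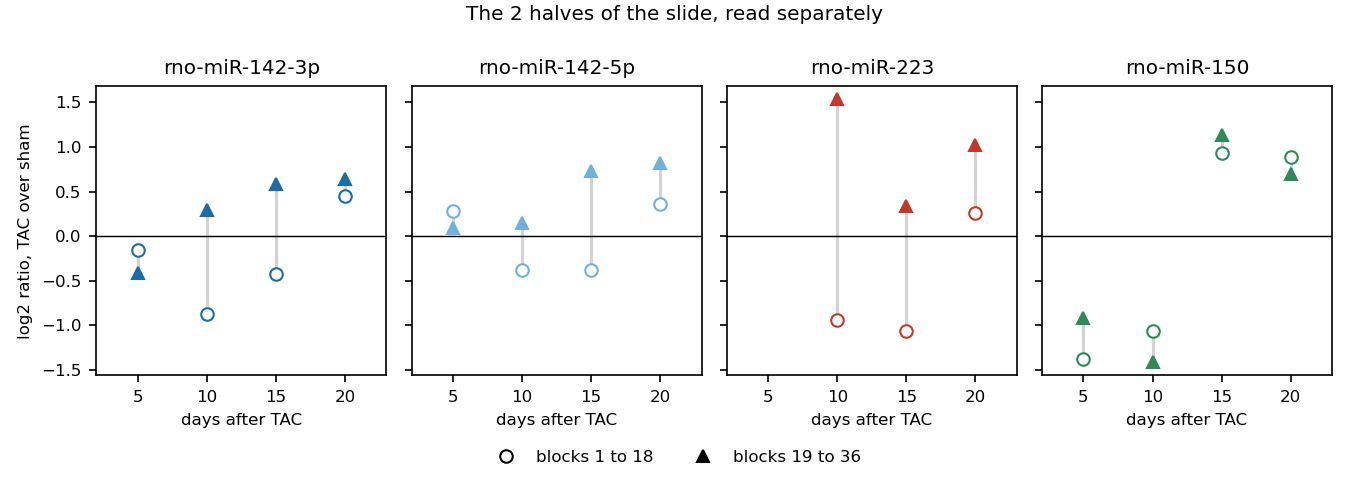
Log2 ratio of TAC over sham (vertical axis) by days after TAC (horizontal axis), read from the spots of blocks 1 to 18 (open circles) and of blocks 19 to 36 (triangles) for 4 leukocyte miRNAs. The block sets straddle 0 on days 10 and 15 for miR-142-3p, miR-142-5p and miR-223, and lie on the same side of 0 on day 20 for all 4.

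The order of the normalized log2 levels over the 5 arrays was read by the steps between neighbours in that order only. Sorting keeps such steps small, and arrays further apart in the order can differ by more than 2 SE. TAC day 20 against sham did so for miR-142-3p (0.55 ± 0.13) and miR-223 (0.64 ± 0.27). The block sets read 0.45 and 0.65 for miR-142-3p, and 0.26 and 1.02 for miR-223, whose scaled spots overlapped with sham. For miR-142-3p the order was TAC day 20 (12.94), TAC day 15 (12.48), sham (12.40), TAC day 5 (12.11) and TAC day 10 (12.11), and only the step between TAC day 5 and sham was larger than 2 SE. For miR-142-5p TAC day 20 (10.56) came first and TAC day 10 (9.85) last, and only the step between day 20 and the next array, day 5 (10.16), was larger than 2 SE. For miR-223 the order was TAC day 20 (9.59), TAC day 10 (9.25), sham (8.95), TAC day 15 (8.59) and TAC day 5, which was below the floor, and no step between neighbours was larger than 2 SE. For miR-150 TAC day 15 (12.32) and TAC day 20 (12.08) came first and TAC day 10 (10.05) last, and only the step between TAC day 20 and sham (11.29) was larger than 2 SE, although their spots overlapped. For miR-342-3p TAC day 20 (7.72) stood below sham (8.14), the highest, by more than 2 SE, and the other 3 arrays were below the floor. These steps are between single arrays. Their SE over spots is technical only, takes spots paired in a block as independent, and says nothing about the spread between rats.

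TAC day 20 can also be set against TAC day 5, a comparison in which the sham array enters only through the scaling. MiR-142-3p read 0.83 ± 0.13 higher on the log2 scale, miR-142-5p 0.40 ± 0.18 and miR-150 1.94 ± 0.68, and for each of them all 4 day 20 spots lay above all 4 day 5 spots, as for 19.7% of the 157 miRNAs compared. MiR-223 was at least 2.61-fold higher on day 20 than on day 5 with quantile scaling, a bound not recomputed with spike-in scaling. At 2-fold or more, 1 of 3 members was higher, against 19.1% of all miRNAs. The median of the 3 was 0.83, against -0.64 for all miRNAs. This rise was not particular to them. Of the lists described below, the erythroid had a median of 2.77 and the endothelial 2.55. The smooth muscle pair had 1.91 and the other leukocyte miRNAs 1.21, each of these lists with 2 miRNAs compared. The fibroblast list had 0.15 and the cardiomyocyte list -0.57. With spike-in scaling miR-142-3p read -0.71 and miR-142-5p -1.19, and miR-150 0.02, in a scaling that puts the median of all miRNAs at -2.12.

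**Figure D4:**
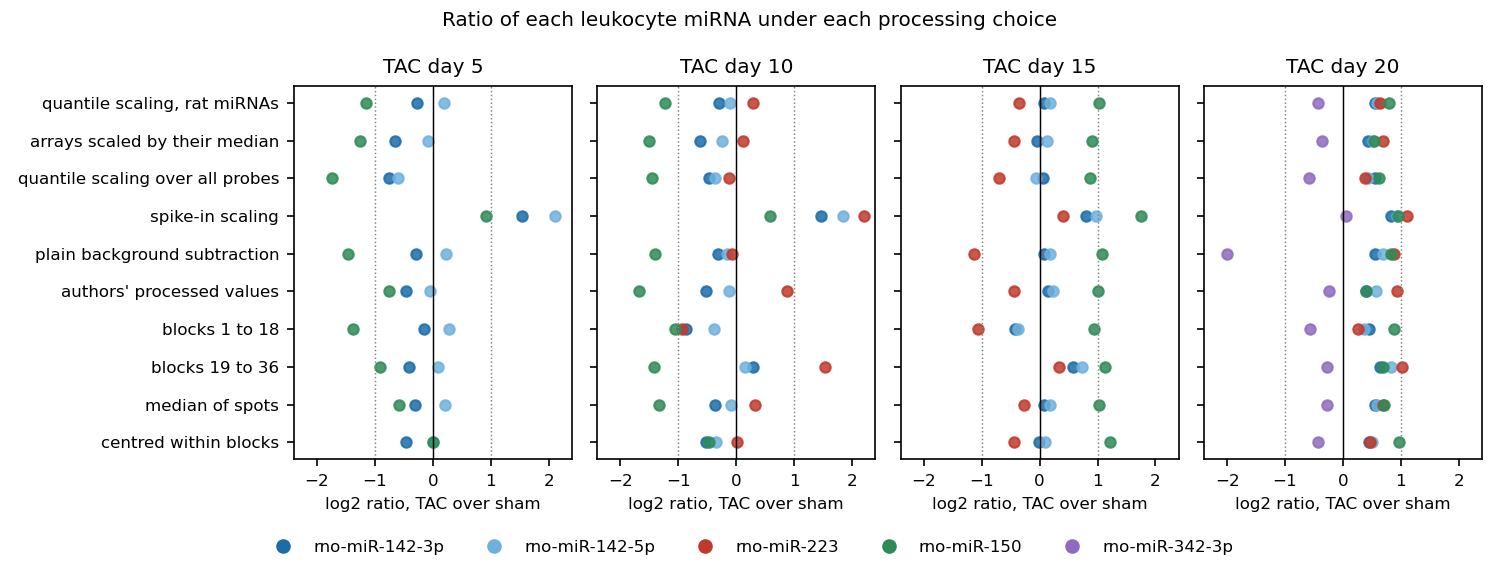
Log2 ratio of TAC over sham (horizontal axis, dotted lines at 2-fold) of each leukocyte miRNA above the floor on both arrays, under the quantile scaling reported here (top row) and 9 other processing choices (lower rows), with 1 panel for each TAC array. Spike-in scaling moves the day 5 values of miR-142-3p, miR-142-5p and miR-150 to 1.54, 2.11 and 0.92, while on day 20 those 3 and miR-223 stay above 0 in every row.

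With the 4 TAC arrays taken as 1 group, none of the 5 leukocyte miRNAs passed the test against the sham array. In limma's moderated test over 273 miRNAs detected on at least 1 array, the log2 difference of TAC less sham was 0.01 ± 0.69 (SE) for miR-142-3p, 0.21 ± 0.61 for miR-142-5p, -0.18 ± 0.76 for miR-223, -0.14 ± 1.04 for miR-150 and -0.79 ± 0.40 for miR-342-3p. Adjusted p-values of the 5 (limma, Benjamini-Hochberg) ran from 0.718 for miR-342-3p to 0.995 for miR-142-3p. No miRNA passed an adjusted p of 0.05 (0.0% of 273), and 1 of 273 had an unadjusted p under 0.05. The test treats 4 times after surgery as 1 group and assumes that the single sham array varies as they do. Means of normalized log2 levels were 7.35 for TAC and 8.14 for sham for miR-342-3p, and 12.41 and 12.40 for miR-142-3p. The test also used values below the floor. These were TAC days 5, 10 and 15 for miR-342-3p and TAC day 5 for miR-223, so their differences rest partly on undetected signal.

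The passenger strands, which are normally degraded after the hairpin is cut, were below the floor on all 5 arrays for the 3 members that have a separate probe: rno-miR-223*, rno-miR-150* and rno-miR-342-5p. Their mean signals lay between -107.8 and 7.5 units.

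Other miRNAs known from leukocytes were set beside the 5. Of 8 on the list, 7 were matched to probes (miR-155 was not analysed here) and 6 were above the floor on TAC day 20 and sham. Of these, miR-146a, induced by NF-kappa-B in activated leukocytes, read above sham (0.74 ± 0.15), and 5 of 6 read below it, as did 58.4% of all miRNAs compared. Among the 5 were miR-181d (-0.68 ± 0.18) and miR-181a (-0.62 ± 0.50, with -1.26 in blocks 1 to 18 and 0.03 in blocks 19 to 36), of the miR-181 family, which tunes lymphocyte receptor signalling. The list median was -0.44, against 0.59 for the 5 leukocyte miRNAs described here and -0.08 for all miRNAs, but it was -0.78 in blocks 1 to 18, 0.01 in blocks 19 to 36 and -0.02 with spike-in scaling. On TAC days 10 and 15 the 5 above the floor read below sham in the mean of 4 spots, as did 50.8% and 50.7% of all miRNAs. Their medians of -1.13 and -0.50 joined -2.11 and -1.35 in blocks 1 to 18 with 0.07 and 0.24 in blocks 19 to 36, and were 0.78 and 0.22 with spike-in scaling. On day 5 the 2 above the floor read below sham (38.2% of all miRNAs), with a median of -1.65 that was 0.55 with spike-in scaling. The miR-146 and miR-181 families are also made outside blood cells.

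Markers of other cells in the same RNA give a measure of what else differed between the arrays. The erythroid list, miRNAs abundant in red blood cells, had 3 of its 4 matched to probes. Its summed signal over detected probes was 1143.5, 5941.8, 20050.2 and 18754 units on TAC days 5, 10, 15 and 20, and 19747 units on sham. MiR-451 had scaled log2 ratios of -3.26 ± 0.06, -1.83 ± 0.98, -0.12 ± 0.49 and -0.12 ± 0.17, and miR-144 of -2.11 ± 0.18, -2.54 ± 0.38, 0.39 ± 0.45 and 0.29 ± 0.28. The block sets put miR-451 on opposite sides of sham on day 15 (-0.89 and 0.65) and day 20 (-0.32 and 0.09), and miR-144 on day 15 (-0.03 and 0.80). MiR-144*, above the floor on TAC day 20 and sham, read 0.09 ± 0.13 (0.31 and -0.13). The 5 leukocyte miRNAs summed over detected probes to 4939.5, 7513.2, 13998.2 and 15376.8 units at the same 4 times and 10905.5 units on sham. These sums are not scaled between arrays. The leukocyte and erythroid sums were both lower than sham on days 5 and 10, and on day 20 the leukocyte sum was above sham while the erythroid sum was slightly below it. The endothelial pair miR-126 and miR-126* had day 20 ratios of 0.06 ± 0.09 and 0.15 ± 0.06, and a summed signal of 3769.5 units on TAC day 5 against 54797.2 units on sham. The cardiomyocyte list, 6 of 6 detected on every array, had a median ratio of 0.40 on day 5 and -0.04 on day 20 (-0.06 and 0.01 in the block sets). On day 5 its members ran from -2.48 (miR-499) to 1.32 (miR-133a), and the median of all miRNAs was 0.56. With arrays scaled by their median the day 5 median of the list was -0.34. The fibroblast list (4 of 4 detected) had -0.52 on day 5 and -0.37 on day 20, where the block sets gave -0.70 and 0.12. Its day 5 members were miR-21 (1.70 ± 0.11), miR-214 (-0.02 ± 0.09), miR-199a-3p (-1.02 ± 0.24) and miR-199a-5p (-1.33 ± 0.08). The smooth muscle pair had -1.91 on day 5, and -0.11 and 0.12 in the block sets on day 20. Its day 5 value joins miR-143 (-3.69 ± 1.04) with miR-145 (-0.13 ± 0.16). With spike-in scaling the day 5 medians were 1.85 for the cardiomyocyte list, 1.37 for the fibroblast list and -0.07 for the smooth muscle pair. The part of blood content in the leukocyte values of days 5 and 10 was not tested.

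The miRNAs with the nearest profiles over the TAC arrays were sought for each member, by the root mean square difference of their log2 ratios to sham. All these ratios share the sham array and the layout of the slide. Among the 143 miRNAs above the floor on all 5 arrays, miR-142-3p was closest to miR-490 (0.25), miR-142-5p (0.26) and miR-499* (0.34), where the median distance was 0.93. MiR-142-5p was closest to miR-21* (0.17), miR-505* (0.20) and miR-490 (0.24), where the median distance was 0.90, and miR-142-3p came 5th (0.26). MiR-223, compared over TAC days 10, 15 and 20, was closest to miR-365 (0.09), miR-32* (0.18) and miR-503 (0.34) of 187 miRNAs, where the median distance was 0.72. For miR-150 the nearest were miR-24 (0.71), miR-499* (0.72) and miR-126* (0.74), where the median distance was 1.38, and miR-142-3p came 5th (0.81). None of these was close to miR-150. MiR-24 read 0.21 on day 15 and -0.17 on day 20, against 1.03 and 0.79 for miR-150.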

How the data were processed

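Total RNA was labelled with Hy3 and hybridized to 1-colour arrays, per the labels' protocols. The labels do not name the scanner or image software. Per the file headers, each spot in the raw table has a foreground intensity and a background-subtracted intensity from the authors, neither scaled between arrays. The authors' deposited table gives a ratio per probe: the median background-subtracted signal over 1 constant per array (733, 1036.5, 991 and 1074.5 for TAC days 5 to 20 and 1036.5 for sham, found from the values). The sham column of the raw table was assigned because the deposited sham ratios are an exact multiple of its spot medians.

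Normexp (offset 50) corrected the foregrounds, which were quantile scaled over the spots of 678 rat miRNA probes, and averaged over 4 spots on the log2 scale (limma 3.58.1, R 4.3.3). The offset shrinks ratios of dim probes. The detection floor was the median plus 3 scaled MAD of empty and negative-control spots. A bound sets the detected array's level against the higher of the dimmest detected miRNA and the probe's own level on the other array. It was not recomputed under the alternatives. The lone-sham limma test used eBayes with a trend and had 3 residual degrees of freedom.

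With 1 array per group no p-value compares single times. The number of arrays limits the precision. The members, lists and rules were chosen with earlier results of these data known. Named beside the members, by rule, were their passenger strands, members of 6 lists of cell type miRNAs and the 3 miRNAs nearest in profile. Alternatives were 3 other scalings, plain subtraction (minimum 1 unit), the authors' ratios (a miRNA without one counts as not above sham under every choice), blocks 1 to 18 or 19 to 36 alone, the median of spots, no floor and, added later, centring within blocks (6 to 32 spots per block). RefSeq sequences are of build GRCr8, and miR-150 is named only.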

Additional observations from a re-analysis of the deposited data

Results flagged for a closer look

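Log2 ratios to sham lay beyond 2 SE over spots on opposite sides at different times for miR-142-3p and miR-150. How many of all miRNAs did the same was not counted, so this is no trait particular to them. The difference between times was not tested, since each time has 1 array. The ratio of miR-142-3p was -0.28 on TAC day 5 and 0.55 on TAC day 20. The ratio of miR-150 was -1.24 on TAC day 10, 1.03 on TAC day 15 and 0.79 on TAC day 20.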

How the results depend on the processing

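No paired analysis was possible because no group holds more than 1 array. For miR-142-3p, miR-142-5p, miR-223 and miR-150 the day 20 ratio to sham stayed above 0 under each of 9 alternatives that give a ratio, between 0.26 (miR-223, blocks 1 to 18) and 1.10 (miR-223, spike-in scaling). The cause of the changes below was not tested. Spike-in scaling turned the median of the members to 1.54 on day 5 and to -0.71 for day 20 against day 5, and moved it to 1.65 on day 10. It turned miR-142-3p to 1.54 on day 5 and -0.71 for day 20 against day 5, miR-142-5p to -1.19 for day 20 against day 5, miR-150 to 0.58 on day 10 and miR-342-3p to 0.047 on day 20. On day 5 miR-142-5p turned to -0.076 with arrays scaled by their median, -0.60 with quantile scaling over all probes and -0.056 in the authors' deposited table. The day 5 median of the members was -0.65 with arrays scaled by their median, -0.76 with quantile scaling over all probes, -0.46 in the authors' deposited table and 0.0086 centred within blocks. The median for day 20 against day 5 was 1.31 with quantile scaling over all probes. The counts at 2-fold that follow are of members only, since the share of all miRNAs was not counted under the alternatives. With spike-in scaling the median of all miRNAs was itself 2.54 on day 5, 1.86 on day 10 and -2.12 for day 20 against day 5. Of the members at 2-fold on day 5 (1 lower in the report), there were 2 higher with spike-in scaling and 3 lower with no floor (which adds 2 probes below it). There were 0 in the authors' deposited table, in blocks 19 to 36, with the median of spots and centred within blocks. On day 10 (1 lower in the report) there were 3 higher with spike-in scaling, 2 in blocks 19 to 36 (miR-223 higher, miR-150 lower) and 0 centred within blocks. On day 15 (1 higher in the report) there were 2 with plain background subtraction (miR-150 higher, miR-223 lower), 1 lower in blocks 1 to 18 (miR-223) and 0 with arrays scaled by their median or quantile scaling over all probes, where miR-150 read 0.90 and 0.87. On day 20 (0 in the report) there was 1 higher with spike-in scaling and in blocks 19 to 36 (miR-223 each time), and 1 lower with plain background subtraction (miR-342-3p, -2.01). For day 20 against day 5 (1 higher in the report) there were 2 higher with arrays scaled by their median, in blocks 19 to 36 and with no floor, 3 higher with quantile scaling over all probes, 1 lower with spike-in scaling (miR-142-5p) and 0 centred within blocks. The limma count stayed at 0 under each alternative, also with each TAC array left out in turn (range 0 to 0), where 1 to 9 of 273 miRNAs had an unadjusted p under 0.05.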
